A study of Mus musculus with 16 samples.

Results

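The genes of the mouse major histocompatibility complex (MHC) and of antigen presentation were followed in gonadal fat of fasted and fed mice. They comprise every gene whose symbol begins with H2-, the prefix of the mouse MHC, together with B2m, Tap1, Tap2, Tapbp, Cd74, Ciita and Nlrc5. On the arrays 44 probe sets carried 1 such symbol and no other, and they stood for 40 of the 22180 genes tested. Where a gene had more than 1, as 4 did, the brightest by its mean over all 16 arrays stood for it. A further 11 symbols, Cd74, H2-D1, H2-Q2, H2-Q6, H2-Q7, H2-Q8, H2-Q9, H2-T3, H2-T9, H2-T18 and H2-T22, stood only on probe sets shared between genes and were not analysed here.

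MHC class I molecules consist of a heavy chain and β2-microglobulin, and show CD8+ T cells peptides that the proteasome cuts in the cytosol, that the TAP transporter moves into the endoplasmic reticulum and that tapasin helps to load. MHC class II molecules consist of an alpha and a beta chain, are displayed mainly by B cells, dendritic cells and macrophages, and receive peptides in endosomes, where the DM heterodimer exchanges the invariant chain fragment for antigen and the DO heterodimer holds DM back. The transactivators, NLRC5 for class I and CIITA for class II, are recruited to a shared promoter module of X and Y boxes; the Y box, CCAAT, is bound by NF-Y and the X box by the RFX complex.

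Total RNA of gonadal white adipose tissue, the fat pad beside the epididymis, was measured on Affymetrix whole-transcript arrays. Of the samples, 8 came from male C57BL/6 mice after 16 hours without food and 8 from male C57BL/6 mice that had been fed ad libitum, all 3 to 4 months old and sampled in the morning. The deposited values are log2 expression values from RMA, which corrects background, equalises the arrays' distributions and joins the probes of a probe set into 1 value, so each change is relative to the other transcripts of the array. Whether each array stood for a mouse of its own is not said in the labels, so p-values reflect only how these samples vary.

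Fasted and fed arrays were compared with limma, and genes with an adjusted p under 0.05 (Benjamini-Hochberg, over all 22180 genes) are those said to be called, to rise or to fall. Array medians lay between 3.60 and 3.69, and no batch was given. The mean over 6 adipocyte markers lay between 10.8 and 11.0 in both groups. Fasted replicate 7 and fed replicate 2 stood apart with means of 5.04 and 5.49 over 7 motile cilia genes, against 3.52 or less in every other array. The mean over 10 liver transcripts was highest in fed replicate 3, at 8.70, followed by fed replicates 2 and 4, at 8.54 and 8.37.

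Of the 40 genes, 1 rose and 5 fell in the fasted arrays, which is 15% of them, while 19.2% of all genes tested were called, 8.49% as higher and 10.7% as lower. The gene that rose was H2-Q10, a class I heavy chain, and those that fell were H2-DMa, H2-DMb1, H2-DMb2, Nlrc5 and Tapbp. The median difference between fasted and fed arrays was -0.087 on the log2 scale over the 40 genes and -0.0042 over all genes tested, and 29 of the 40 differences were negative. H2-Q10 was also the 1 gene of the 40 whose fasted and fed values did not overlap; 6.48% of all genes were without overlap. The share called was thus not above that of the array as a whole, and the changes lay in particular genes. Many of the genes were dim: 20 of the 40 had a mean log2 value under the median of all genes, 4.18, and 10 were under the lower quartile, 2.67, where a change is hard to see on an array. Of the 20 brighter genes 5 were called, 25% against 34.2% of all genes above the median, and of the 20 dimmer ones 1, H2-DMb1, 5% against 4.17% of all genes at or under it. In whole tissue, fewer cells of a type and less RNA per cell cannot be told apart, and this holds for every result here.

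**Figure D1:**
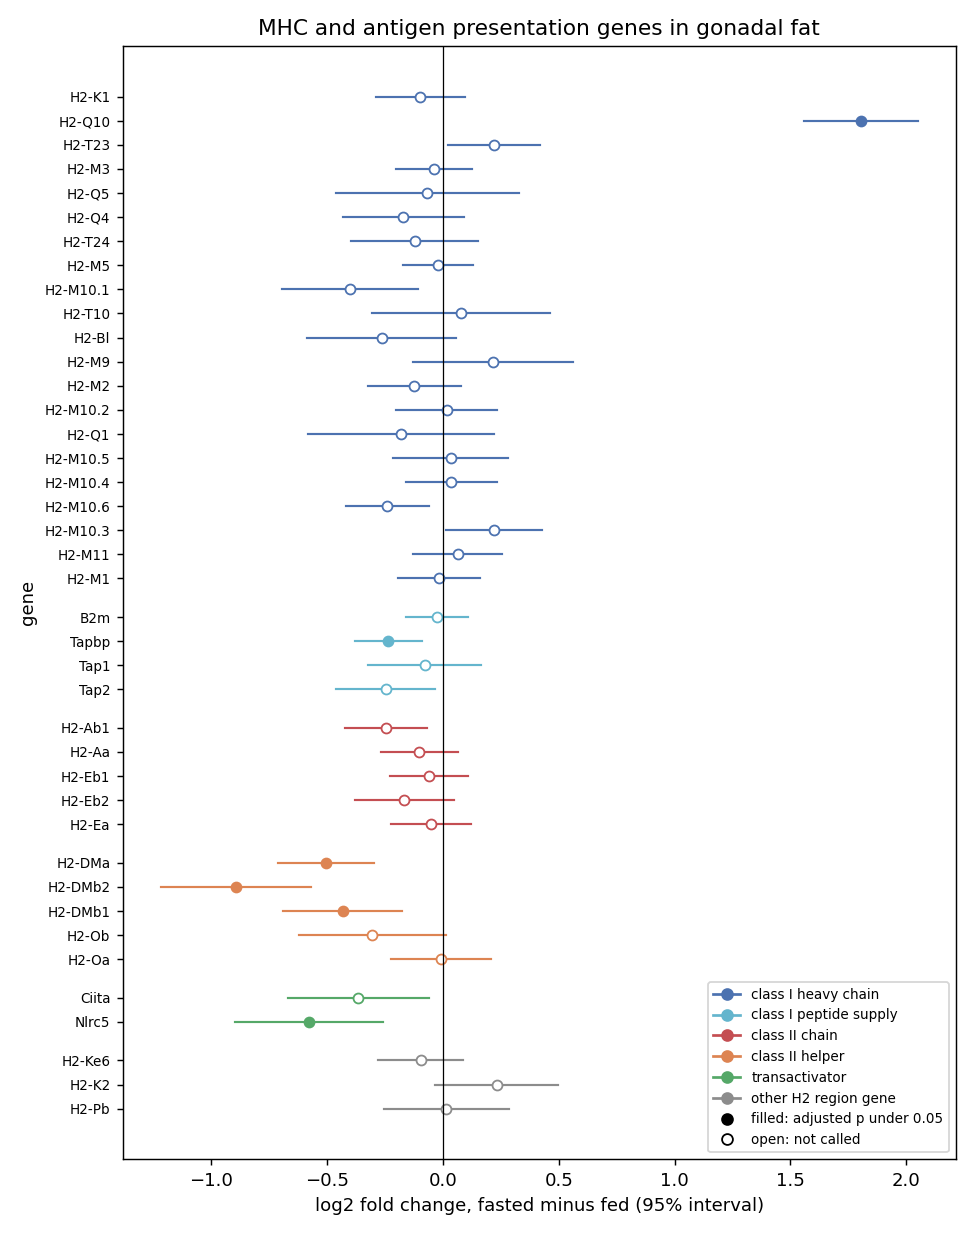
Log2 fold change of each of the 40 genes, fasted minus fed, with its 95% interval, grouped by role from class I heavy chains at the top to other genes of the H2 region at the bottom. Filled points passed the threshold; H2-Q10 stands alone at the right at 1.80, and the called genes at the left are H2-DMb2, Nlrc5, H2-DMa, H2-DMb1 and Tapbp.

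Among the class I heavy chains, H2-Q10 was the gene that changed. It encodes Qa-10, a class I molecule that is secreted and is known in mice chiefly as a product of the liver. Its log2 expression was lowest at 9.06, had a median of 9.35 and reached 9.82 in fasted arrays, against 7.16, 7.57 and 7.86 in fed arrays. All 8 fasted arrays lay above all 8 fed arrays, with a gap wider than the range of either group. The mean was 9.35 ± 0.23 in fasted and 7.54 ± 0.26 in fed arrays (SD, n = 8 each), a 3.49-fold rise (log2 fold change 1.80, SE 0.12, 95% interval 1.56 to 2.05, limma adjusted p = 4.33e-09). A second, dimmer probe set of H2-Q10 averaged 4.51 in fasted and 4.13 in fed arrays, a difference of 0.38 (SE 0.15) that was not called (limma adjusted p = 0.102). The result therefore rests on the brighter probe set, and with the dimmer one no heavy chain was called higher. Whether its probes also bind near-identical heavy chains of the Q region was not tested.

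Because H2-Q10 is known from the liver, 10 liver transcripts (Alb, Apoa1, Apoa2, Apoc3, Ttr, Fgb, Fgg, Ahsg, Serpina1a and Ambp) were read beside it. Their mean log2 level ranged from 5.86 to 8.03 in fasted arrays and from 5.57 to 8.70 in fed arrays, so it varied widely in both groups and overlapped. Of the 10, Apoc3 rose (log2 fold change 0.95, limma adjusted p = 0.0243), a call lost without fasted replicate 8 or fed replicate 1 or 8 (adjusted p up to 0.053), and none of the others was called. Within the fasted arrays H2-Q10 had a Pearson r of 0.0023 with the liver mean (exact permutation p = 0.995, n = 8) and a Spearman rho of -0.19 (exact permutation p = 0.665, n = 8). Within the fed arrays r was -0.028 (exact permutation p = 0.942, n = 8) and rho -0.17 (exact permutation p = 0.703, n = 8). Of 24 such correlations computed here, these had adjusted p-values between 0.804 and 0.995. When the 2 arrays with the most extreme liver level in each group were left out, r was -0.28 in fasted and 0.24 in fed arrays. With the liver mean as a covariate the log2 fold change of H2-Q10 was 1.80 (limma adjusted p = 9.36e-09), and without fasted replicate 7 and fed replicates 2 and 3 it was 1.77 (limma adjusted p = 1.16e-07). The fit without those arrays kept fed replicate 4 and fasted replicate 4, whose liver means were 8.37 and 8.03. Where the H2-Q10 signal came from was not tested.

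**Figure D2:**
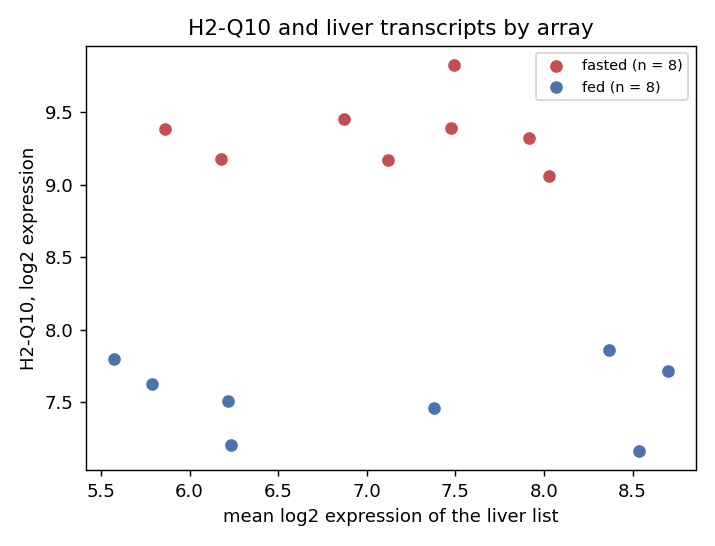
Log2 expression of H2-Q10 (vertical axis) against the mean log2 expression of the 10 liver transcripts (horizontal axis), 1 point per array. The 8 fasted arrays form a band at 9.06 or above and the 8 fed arrays a band at 7.86 or below, each across a wide range of liver transcript levels.

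H2-K1, the classical class I heavy chain that loads peptides for CD8+ T cells on most cells, did not pass the test. Its values were 9.56 at the lowest, 10.04 at the median and 10.26 at the highest in fasted arrays, against 9.79, 10.09 and 10.24 in fed arrays. The groups lay over each other, with a log2 difference of -0.097 (SE 0.091, 95% interval -0.29 to 0.095, limma adjusted p = 0.565), so a change in H2-K1 as large as that of H2-Q10 lies outside the interval.

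H2-K1 and H2-Q10 are related genes that differed in this comparison, so the 250 bases before their RefSeq starts (assembly GRCm38.p6) are shown 5′ to 3′ on the coding strand. The H2-Q10 stretch is chr17:35469839-35470088 on the plus strand and the H2-K1 stretch is chr17:34000334-34000583 on the minus strand, before 1 of 2 RefSeq starts. Capitals mark matches to the motifs searched below and, in H2-Q10, the bases aligned to the matches in H2-K1.
H2-Q10: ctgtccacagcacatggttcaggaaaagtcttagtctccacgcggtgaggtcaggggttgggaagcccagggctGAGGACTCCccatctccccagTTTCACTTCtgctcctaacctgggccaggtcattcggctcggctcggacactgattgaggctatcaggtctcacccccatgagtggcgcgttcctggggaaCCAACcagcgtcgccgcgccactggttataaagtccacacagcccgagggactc
H2-K1: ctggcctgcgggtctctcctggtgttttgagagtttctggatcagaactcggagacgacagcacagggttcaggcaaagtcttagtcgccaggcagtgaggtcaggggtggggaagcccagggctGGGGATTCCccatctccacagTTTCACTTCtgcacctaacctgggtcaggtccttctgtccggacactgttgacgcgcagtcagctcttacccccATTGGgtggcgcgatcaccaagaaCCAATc
A global alignment paired 196 bases, of which 166 or 84.7% were identical. Counted from -1 at the base before the start, H2-K1 holds the kappa B letters GGGGATTCC at -125, and the aligned bases of H2-Q10 at -176 are GAGGACTCC, with the substitutions G2A and T6C (H2-K1's base first, positions from 1 at the 5′ end of the motif). The interferon response core TTTCACTTC is the same in both, at -104 in H2-K1 and -155 in H2-Q10. The CCAAT of H2-K1 at -6 is aligned with CCAAC at -54 in H2-Q10 (T5C), and the ATTGG of H2-K1 at -30, a CCAAT on the other strand, falls across a gap. These are descriptions of letters; no binding was measured.

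Over all 21 class I heavy chains 4.76% were called, against 19.2% of all genes. Over the 7 above the median level of all genes 14.3% were called, against 34.2% of all genes above it. Among all genes at or under that level 4.17% were called. H2-Q10 was the 1 heavy chain called, H2-K1 was not, and neither were the other 19. Of those above the median level of all genes, H2-T23, the Qa-1 chain that shows signal peptides to NKG2A on NK cells, had values of 6.72, 6.88 and 7.35 (lowest, median, highest) in fasted arrays and 6.44, 6.66 and 7.05 in fed arrays. The groups overlapped, with a log2 difference of 0.22 (SE 0.095, limma adjusted p = 0.125); without fed replicate 6 the adjusted p was 0.0456. H2-M3, which presents formylated bacterial peptides, differed by -0.036 (SE 0.078, limma adjusted p = 0.835). H2-Q5, H2-Q4 and H2-T24 differed by -0.066, -0.17 and -0.12, all within the spread of the arrays (limma adjusted p between 0.424 and 0.878). The dimmer probe sets of H2-Q5 and H2-Q4 gave -0.0037 and 0.13, so for H2-Q4 the sign depended on the probe set.

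The remaining 14 heavy chains were at or under the median level: H2-M5, H2-T10, H2-Bl, H2-M9, H2-M2, H2-Q1, H2-M11, H2-M1 and the 6 genes H2-M10.1 to H2-M10.6. The H2-M10 genes and H2-M1 are known from the vomeronasal organ, where they accompany pheromone receptors. Their differences ran between -0.40 and 0.22. Closest to the threshold were H2-M10.1, with 2.66, 3.24 and 3.66 in fasted against 3.14, 3.64 and 4.11 in fed arrays (log2 difference -0.40, SE 0.14, limma adjusted p = 0.0537), and H2-M10.6, with 1.85, 2.02 and 2.07 against 1.96, 2.20 and 2.67 (-0.24, SE 0.085, limma adjusted p = 0.0572). H2-M10.1 passed the threshold when fasted replicate 5 or 7 or fed replicate 4 or 8 was left out, with adjusted p down to 0.0226, and H2-M10.6 without fed replicate 7 or 8, down to 0.0265. All values of H2-M10.6 were near the bottom of the array's range, in which values run from 0.99 to 13.2.

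The partners of the heavy chain and the peptide supply showed 1 called gene in 4. That is 25%, against 19.2% of all genes and 34.2% of genes above the median level. B2m, the light chain of every class I molecule, had values of 12.41, 12.64 and 12.77 in fasted arrays and 12.55, 12.62 and 12.82 in fed arrays. The groups coincided, with a log2 difference of -0.024 (SE 0.063, 95% interval -0.16 to 0.11, limma adjusted p = 0.867). B2m is near the top of the array's range, where fold changes are compressed. Tapbp, which encodes tapasin, fell 1.18-fold: its values were 8.73, 8.84 and 9.12 in fasted arrays against 8.92, 9.08 and 9.28 in fed arrays. All fasted arrays except replicate 4 lay below the lowest fed array (log2 fold change -0.23, SE 0.068, limma adjusted p = 0.0198). This small fall was lost when the replicate numbers were used as a block (adjusted p = 0.0589) and when array medians over the tested genes were subtracted (adjusted p = 0.117), and a second probe set gave -0.18 (limma adjusted p = 0.214). The transporter genes were not called: Tap1 differed by -0.078 (SE 0.12, limma adjusted p = 0.743), and Tap2, at 5.16, 5.43 and 5.89 in fasted against 5.39, 5.75 and 5.90 in fed arrays, differed by -0.25 (SE 0.10, limma adjusted p = 0.110). Without fasted replicate 4 the adjusted p of Tap2 was 0.0185.

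No class II chain was called, where 19.2% of all genes were, although all 5 differences were negative and the median was -0.10. H2-Ab1, the beta chain of I-A, the class II molecule of C57BL/6 mice, came closest. Its values were 10.40, 10.85 and 11.05 in fasted arrays and 10.90, 11.04 and 11.25 in fed arrays. Of the fasted arrays 5 lay below the lowest fed array, and the log2 difference was -0.24 (SE 0.085, 95% interval -0.42 to -0.067, limma adjusted p = 0.0504). It stood at the threshold: it was called without fasted replicate 1 or 4 or fed replicate 2 or 5 (adjusted p 0.0248 to 0.0492) and under 6 other settings (adjusted p 0.019 to 0.0312). Its partner chain H2-Aa differed by -0.10 (SE 0.079, limma adjusted p = 0.465), with 8.99, 9.39 and 9.48 in fasted against 9.25, 9.41 and 9.63 in fed arrays. H2-Eb1, a beta chain of I-E, had 8.88, 9.23 and 9.44 in fasted and 9.12, 9.24 and 9.39 in fed arrays and differed by -0.060 (SE 0.080, limma adjusted p = 0.705). H2-Eb2 differed by -0.17 (SE 0.10, limma adjusted p = 0.324). H2-Ea, the alpha chain of I-E, which mice of this haplotype are known not to express, stayed at 2.22 ± 0.16 in fasted and 2.27 ± 0.15 in fed arrays (SD, n = 8 each), under the lower quartile of all genes.

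The helpers of class II loading held most of the falls: 3 of 5 were lower in fasted arrays, where 10.7% of all genes were, and the median difference was -0.43. H2-DMa encodes the alpha chain of DM, and H2-DMb1 and H2-DMb2 encode alternative beta chains. H2-DMa had values of 6.16, 6.41 and 6.76 in fasted arrays and 6.68, 6.99 and 7.16 in fed arrays. In 6 of 8 fasted arrays it lay below every fed array, a 1.42-fold fall (log2 fold change -0.50, SE 0.098, limma adjusted p = 0.00093). H2-DMb2 had 3.97, 4.29 and 5.04 in fasted arrays and 4.99, 5.31 and 5.63 in fed arrays. Here 7 of 8 fasted arrays were below the lowest fed array, and the fall of 1.86-fold was the deepest of the 40 genes (log2 fold change -0.89, SE 0.15, limma adjusted p = 0.000303). H2-DMb1, a dim probe set at 2.77, 3.06 and 3.44 in fasted and 3.19, 3.45 and 4.12 in fed arrays, fell 1.35-fold, with 6 fasted arrays below the lowest fed one (log2 fold change -0.43, SE 0.12, limma adjusted p = 0.0170). All 3 stayed called when any single array was left out, and without fasted replicate 7 and fed replicates 2 and 3 together. In that last fit the log2 fold changes were -0.47, -0.98 and -0.37 for H2-DMa, H2-DMb2 and H2-DMb1. The beta chain genes are close copies, and whether their probe sets share probes was not tested. The DO genes were not called: H2-Oa differed by -0.0093 (SE 0.10, limma adjusted p = 0.973), and H2-Ob, at 2.80, 3.01 and 3.45 in fasted and 2.80, 3.40 and 3.84 in fed arrays, by -0.30 (SE 0.15, limma adjusted p = 0.195).

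**Figure D3:**
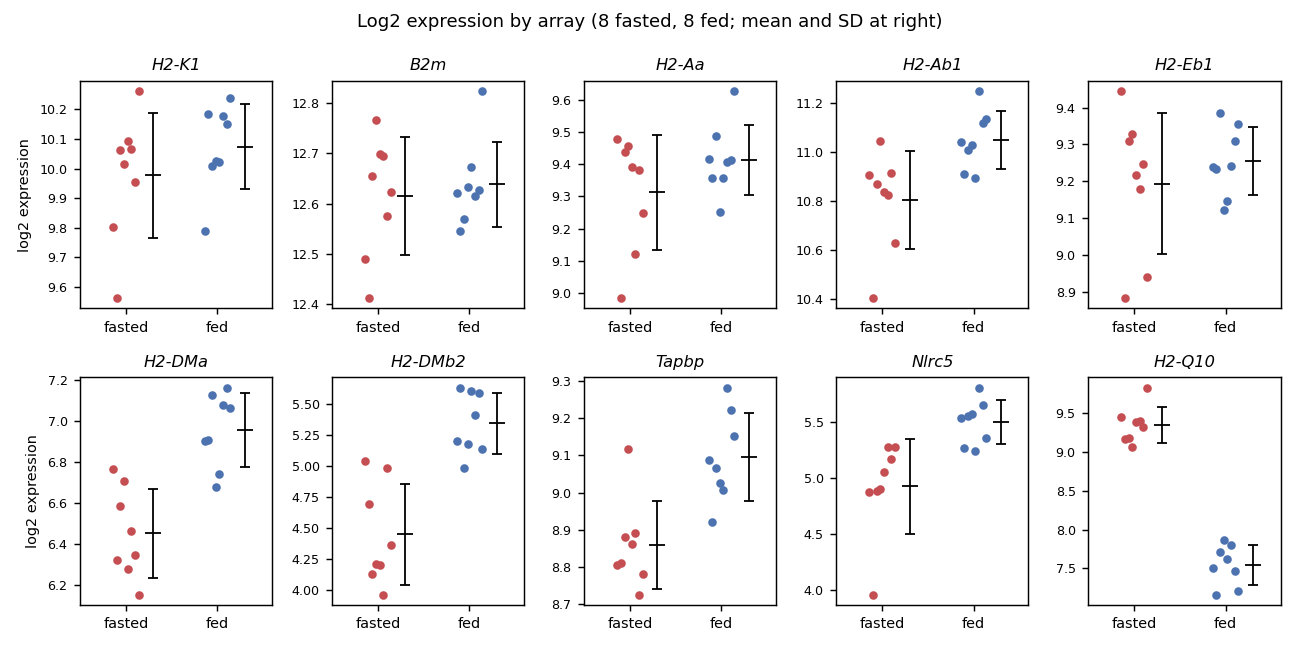
Log2 expression of 10 of the genes in each array, 8 fasted arrays at the left and 8 fed arrays at the right of each panel, with the mean and SD beside the points; each panel has its own vertical range. H2-K1, B2m, H2-Aa and H2-Eb1 overlap between the groups, with a few fasted arrays beyond the fed range, H2-Ab1, Tapbp, H2-DMa, H2-DMb2 and Nlrc5 are shifted down in fasted arrays with some overlap, and H2-Q10 is shifted up with none.

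The 250 bases before the RefSeq starts of both DM beta genes are shown because these genes fell together and carry the X and Y letters. The H2-DMb1 stretch is chr17:34152941-34153190 and the H2-DMb2 stretch chr17:34144999-34145248, both on the plus strand of GRCm38.p6, with the X box core AACNGATG in capitals, and also the Y box, which reads ATTGG here because its CCAAT lies on the opposite strand.
H2-DMb1: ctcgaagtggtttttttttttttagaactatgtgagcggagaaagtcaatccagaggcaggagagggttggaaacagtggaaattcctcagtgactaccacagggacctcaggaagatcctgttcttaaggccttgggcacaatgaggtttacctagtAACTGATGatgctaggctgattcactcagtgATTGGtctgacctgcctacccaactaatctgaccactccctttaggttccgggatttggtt
H2-DMb2: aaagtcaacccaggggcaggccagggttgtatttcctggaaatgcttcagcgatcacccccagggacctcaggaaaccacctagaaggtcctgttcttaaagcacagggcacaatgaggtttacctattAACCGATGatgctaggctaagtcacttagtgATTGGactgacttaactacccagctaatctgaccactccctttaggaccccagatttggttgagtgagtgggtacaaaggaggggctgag
The X box letters lie at -92 in H2-DMb1 and -121 in H2-DMb2, and the Y box letters at -61 and -90, so the spacing of both is the same. RefSeq windows were found for 28 of the 40 genes, with 2 windows for 3 of them. A gene counted if any of its windows matched, while the shares given beside the counts are over windows. Related genes share promoter letters, as H2-K1 and H2-Q10 do, so the genes are not independent cases. In the 250 bases before the start and on both strands, CCAAT occurred in 26 of the 28 genes, against 33.8% of 32851 windows in the table; all 8 genes of class II chains and helpers with a window had it, and H2-Q10 and H2-M5 did not. AACNGATG occurred in H2-DMb1, H2-DMb2, H2-Eb1, H2-Eb2 and H2-M10.4, against 1.98% of windows. H2-DMa, the DM gene that fell beside both beta genes, had no such match, and its Y box letters ATTGG were at -198. TTTCNNTTC, the interferon response core, occurred in H2-K1, H2-M2, H2-M3, H2-Q10 and H2-Q4 (6.31% of windows), and GGGNNTTCC, the kappa B letters, in H2-Aa, H2-K1, H2-M2, H2-Oa and H2-Q4 (4.98% of windows). None of the 5 genes with kappa B letters was called, where 15% of the 40 genes were, and so few genes cannot tie the motif to a change. The other 3 motifs were found before called and uncalled genes alike. The called gene Nlrc5 had no window. A link between any motif and the changes was not tested.

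Of the transactivators, Nlrc5 fell 1.49-fold. Its values were 3.96, 4.98 and 5.28 in fasted arrays and 5.25, 5.55 and 5.81 in fed arrays. Fasted replicate 2 was far below the others, and 6 of 8 fasted arrays lay under every fed array (log2 fold change -0.58, SE 0.15, limma adjusted p = 0.0108). Without fasted replicate 2 or any other single array it stayed called, with fold changes between -0.63 and -0.44 on the log2 scale. Ciita had 4.70, 5.20 and 5.99 in fasted arrays and 5.40, 5.62 and 5.95 in fed arrays. In 6 fasted arrays it was below and in replicate 4 above all fed arrays, and the log2 difference of -0.36 (SE 0.14) was not called (limma adjusted p = 0.0926). Without fasted replicate 4 it was -0.47 with an adjusted p of 0.00772. With all arrays it was also called when genes under a linear value of 20 in 8 arrays were removed first (adjusted p = 0.0494).

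The H2- prefix also took in 3 genes counted as neither class. H2-Ke6, a hydroxysteroid dehydrogenase gene inside the complex, H2-K2 and H2-Pb differed by -0.096, 0.23 and 0.015, and none was called (limma adjusted p between 0.243 and 0.963). Class means were also taken over genes with a probe set of their own. They leave out H2-D1 and the other heavy chains on shared probe sets, so they do not stand for class I as a whole. The mean log2 value over the 6 class I heavy chains above the median level other than H2-Q10 ranged between 6.63 and 6.93 in fasted arrays. In fed arrays it ranged between 6.58 and 7.08, a difference of the group means of -0.045. With H2-Q10 the same difference was 0.22. Over H2-Aa, H2-Ab1 and H2-Eb1 the mean ranged between 9.42 and 9.94 in fasted arrays and between 9.80 and 10.04 in fed arrays, a difference of -0.14. Fasted replicates 2 and 8 had the lowest class II means, 9.42 and 9.61. No test is attached to these means, and the levels of class I and class II are not set against each other, since array values do not compare between genes.

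Genes that serve the same routes outside the rule were read in 6 lists, of which 49 genes were measured. Of these, 4 rose and 8 fell, 24.5% against 19.2% of all genes and 34.2% of genes above the median level, with a median difference of -0.088. Among the proteasome subunits that cut class I peptides and their activator, 2 of 5 fell, where 10.7% of all genes did, and the median was -0.31. Psmb10, an immunoproteasome subunit, had 6.82, 7.03 and 7.42 in fasted and 7.54, 7.59 and 7.67 in fed arrays. All fasted values lay below all fed values (log2 fold change -0.48, SE 0.079, limma adjusted p = 0.000217). Psmb9, another, was at 5.04, 5.46 and 5.79 in fasted and 5.46, 5.79 and 6.03 in fed arrays, with a fold change of -0.31 that lay at the threshold (SE 0.11, limma adjusted p = 0.0490). It stayed called only when the array left out was fasted replicate 2 or 8 or fed replicate 1 or 4, and the adjusted p ran from 0.0236 to 0.098. Psmb8, Psme1 and Psme2 differed by -0.12, -0.25 and -0.33 and were not called (limma adjusted p between 0.0540 and 0.552). Among 6 genes of class I folding and trimming Tapbpl, the tapasin-like peptide editor, fell: it had 5.46, 5.74 and 6.06 in fasted and 5.76, 6.30 and 6.47 in fed arrays (log2 fold change -0.50, SE 0.10, limma adjusted p = 0.00152), and fed replicate 2 was the low fed array. The other 5, Calr, Canx, Pdia3, Erap1 and Uggt1, differed by -0.18 to 0.063 and were not called. With 1 of 6 called the share was 16.7%, against 19.2% of all genes and 34.2% of genes above the median level.

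Among 9 genes of class II processing and turnover 1, Lgmn, rose. That is 11.1% called, against 19.2% of all genes and 34.2% of genes above the median level. Lgmn encodes legumain, a lysosomal protease, and had 9.13, 9.47 and 9.76 in fasted against 8.41, 8.75 and 9.02 in fed arrays. The groups did not overlap, and the rise was 1.72-fold (log2 fold change 0.78, SE 0.10, limma adjusted p = 2.13e-05). The cathepsin genes Ctss, Ctsl, Ctsb and Ctsd differed by 0.19, 0.18, -0.096 and 0.029, Ifi30, the lysosomal thiol reductase, by -0.19, and Marchf1 and Marchf8, ubiquitin ligases of class II, by 0.18 and 0.21; none of these was called, nor was Sppl2a.

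Of 17 measured regulators 3 rose and 1 fell, with a median of -0.020. That is 23.5% called, against 19.2% of all genes and 34.2% of genes above the median level. Those that rose were subunits of the complexes that bind the Y and X boxes. Nfyb had 6.23, 6.55 and 6.95 in fasted and 5.75, 5.97 and 6.19 in fed arrays, without overlap (log2 fold change 0.61, SE 0.096, limma adjusted p = 0.000135). Nfya, at 7.48, 7.80 and 8.08 against 7.08, 7.31 and 7.45, was likewise higher in every fasted array (0.48, SE 0.088, limma adjusted p = 0.000543). Rfxank rose by 0.43 (SE 0.074, limma adjusted p = 0.000294). The remaining subunits of these complexes were not called: Nfyc differed by -0.24, Rfx5 by -0.020 and Rfxap by -0.096. Irf8, an interferon regulatory factor of dendritic cells and macrophages, fell by 0.32 (SE 0.099, limma adjusted p = 0.0261); the count of regulators that fell ran between 0 and 2 with single arrays left out, and changed with fasted replicates 1 and 4 and fed replicates 1 and 6. The interferon-gamma receptor genes Ifngr1 and Ifngr2 differed by 0.073 and -0.088 and Irf1 by -0.24, and these were not called.

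Among class I-like chains encoded outside the complex 3 of 6 fell, and in costimulation 1 of 6 did, against 10.7% of all genes. Mr1, which presents vitamin B metabolites to mucosal-associated invariant T cells, had 7.02, 7.47 and 7.73 in fasted and 8.30, 8.44 and 8.47 in fed arrays. Every fasted array was below every fed array, a fall of 1.97-fold (log2 fold change -0.98, SE 0.088, limma adjusted p = 2.13e-07). Hfe, a class I-like protein of iron regulation, had 7.04, 7.36 and 8.08 in fasted and 7.98, 8.29 and 8.67 in fed arrays and fell 1.80-fold (limma adjusted p = 0.000203). Cd1d1, which presents lipids to NKT cells, had 5.40, 5.70 and 6.78 in fasted and 5.88, 6.39 and 6.62 in fed arrays; its fall of 0.53 (SE 0.17, limma adjusted p = 0.0344) was lost on leaving out any of 10 arrays, fasted replicates 1, 3, 5, 7 and 8 and fed replicates 1, 4, 6, 7 and 8, with adjusted p up to 0.0723. Fcgrt, the neonatal Fc receptor, differed by 0.16 and was not called (limma adjusted p = 0.0726). Cd274, which encodes the checkpoint ligand PD-L1, had 5.42, 5.68 and 5.96 in fasted and 6.37, 6.81 and 7.15 in fed arrays. There was no overlap, and the fall was 2.14-fold (log2 fold change -1.10, SE 0.12, limma adjusted p = 2.03e-06). Cd80, Cd86 and Cd40, by contrast, differed by -0.12, 0.17 and -0.22 and were not called.

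**Figure D4:**
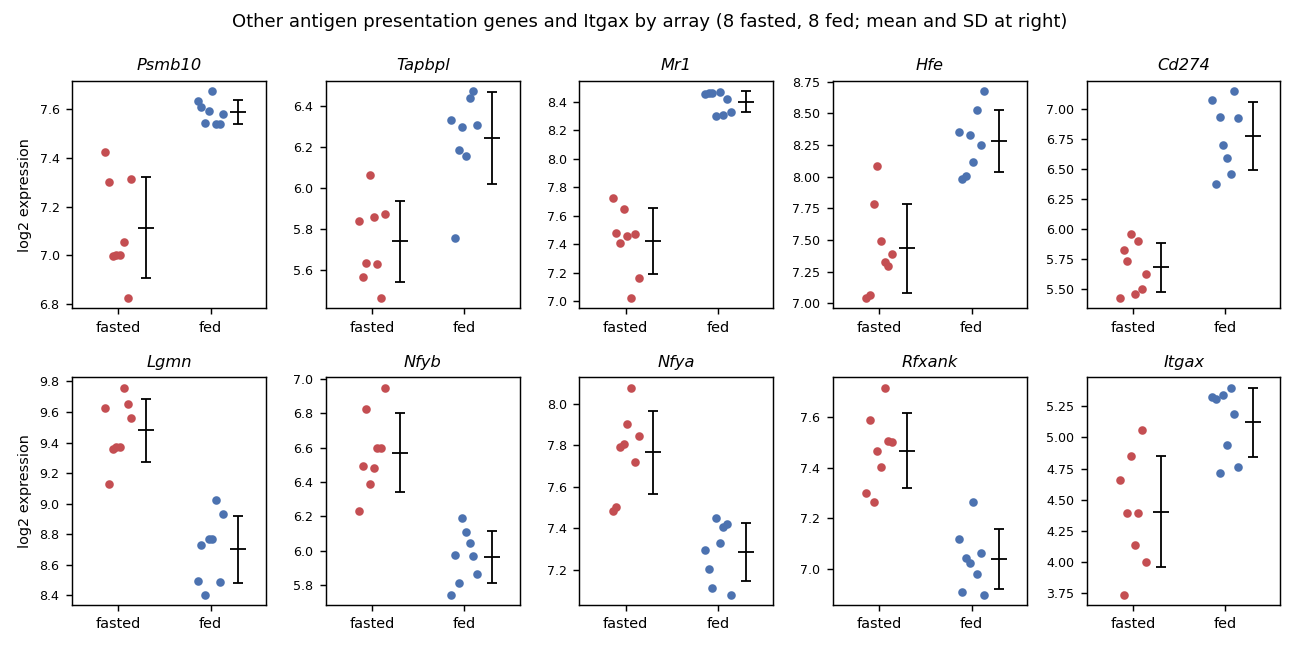
Log2 expression in each array of 9 related genes outside the rule and of the dendritic cell marker Itgax, with 8 fasted arrays at the left and 8 fed arrays at the right of each panel and the mean and SD beside the points; each panel has its own vertical range. Psmb10, Mr1 and Cd274 lie lower and Lgmn, Nfyb and Nfya higher in every fasted array, while Tapbpl, Hfe, Rfxank and Itgax are shifted with some overlap.

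Markers of the cells that carry MHC class II were read beside these changes. None of 7 B cell markers was called (Cd22 differed by 0.12 and Fcmr by 0.094), and their summed linear level ranged from 71.3 to 115 in fasted and from 63.7 to 133 in fed arrays. Of all genes 8.49% rose and 10.7% fell. Of 7 dendritic cell markers 2 rose and 1 fell, with sums of 346 to 479 in fasted and 299 to 379 in fed arrays. Of 10 macrophage markers 3 rose and 1 fell, with sums of 4151 to 6424 in fasted and 4075 to 4628 in fed arrays. Cd68, a lysosomal macrophage protein, rose by 0.88, Cd163, a scavenger receptor, by 0.73 and Cd14, the lipopolysaccharide coreceptor, by 0.43. Mrc1, the mannose receptor, fell by 0.23 (limma adjusted p = 0.0351), and the number of macrophage markers that fell was 0 in most fits with 1 array left out and 2 without fasted replicate 1. Adgre1, which encodes F4/80, differed by -0.17 and was not called. Clec10a, a lectin of dendritic cells and macrophages, rose by 0.46 (SE 0.097, limma adjusted p = 0.00195) and Zbtb46, a transcription factor of dendritic cells that endothelial cells also use, by 0.43 (SE 0.098, limma adjusted p = 0.00376). The marker that fell among dendritic cell genes was Itgax, which encodes CD11c and is carried by macrophages too: it had 3.74, 4.39 and 5.06 in fasted and 4.72, 5.25 and 5.40 in fed arrays (log2 fold change -0.72, SE 0.17, limma adjusted p = 0.00437). The markers of antigen-presenting cells therefore did not move in 1 direction, and their part in the changes of the DM genes, Nlrc5 and Tapbp was not tested. In the remaining lists, 1 of 8 T and NK cell markers fell (Ncr1). Of 7 endothelial markers Pecam1 and Tek rose by 0.39 and 0.22 and Erg fell by 0.42. Of 6 adipocyte markers the lipid droplet genes Plin4 and Cidec rose by 0.35 and 0.25 and Plin1 fell by 0.84. Of 6 fibroblast markers Lum fell by 0.68 and of 5 mesothelial markers Krt19 fell by 0.55. None of the 7 motile cilia genes was called (Tekt1 differed by 0.23 and Rsph1 by -0.12). The calls of Ncr1, Tek and Krt19 in these lists were lost on leaving out any of 8, 10 and 12 single arrays.

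The arrays of each group were also compared among themselves. In fasted arrays H2-Ab1 correlated with Itgax at a Pearson r of 0.865 (exact permutation p = 0.00268, adjusted p = 0.0485 over the 24 correlations, n = 8) and a Spearman rho of 0.952 (exact permutation p = 0.00114, adjusted p = 0.0274, n = 8). Fasted replicates 2 and 8 had the most extreme H2-Ab1 values, and without them r was 0.695. With H2-Eb1 the r of H2-Ab1 was 0.900 (exact permutation p = 0.00404, adjusted p = 0.0485, n = 8) and rho 0.881 (exact permutation p = 0.00724, adjusted p = 0.0869, n = 8), but r was 0.485 without those 2 arrays, on which it rests. With H2-Aa, H2-DMa, Ciita, Adgre1 and the B cell marker Cd79a, r was 0.838, 0.631, 0.737, 0.679 and -0.691, with adjusted p-values between 0.109 and 0.207 by exact permutation. In fed arrays no correlation passed: r was 0.184 with Itgax and 0.346 with H2-Eb1 (adjusted p = 0.830 and 0.647 by exact permutation, n = 8). Whether the groups differ in this was not tested.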

How the data were processed

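The deposited log2 values were made by the authors with RMA, per the submitters' processing notes; version, software and probe filters are not stated there, and the values themselves gave the log2 scale. Per the labels' protocols, 100 ng of RNA per sample was labelled. Of 41345 probe sets, 23521 had 1 symbol in the platform annotation and stood for 22180 genes. Groups follow the labels. The fit used lmFit with group alone and eBayes (limma 3.58.1, R 4.3.3), without a filter, with Benjamini-Hochberg adjustment; it was tested on simulated data. All members are named, and from each list up to 3 called genes by size of change or the 2 with the lowest p; any other list gene named was chosen after its values were seen. The members and lists were chosen with earlier results of these data known. Promoter letters were searched and aligned with Biopython 1.88, and figures drawn with matplotlib 3.10.9. The number of arrays limits the precision. Same-numbered fasted and fed arrays did not pair (correlations of deviations -0.216 to 0.218). Alternatives were other normalizations, filters on dim genes, variance models, array weights, other probe sets, a rank sum test, a stricter threshold and each array left out; leaving out fasted replicate 7 and fed replicates 2 and 3 together, the liver covariate, medians over the tested genes, the X box, H2-Ab1 in place of Cd74 in the correlations and the pair of H2-Q10 with liver transcripts were chosen after seeing the data. Protein identities between the heavy chains, and the correlations planned for Cd74 and H2-D1, were not run.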

Additional observations from a re-analysis of the deposited data

Results flagged for a closer look

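In 20 of 142 groups, 8 arrays of 1 gene each over 71 genes, a single array lay far from the others by Dixon's criterion, which chance alone reaches in about 1 group in 20. All values are log2 expression, with the nearest array of the same group after it. Among the class I genes, H2-T23 was 7.346 in fasted replicate 1 (nearest 7.007). H2-M5 was 4.151 in fasted replicate 6 (3.903) and 3.607 in fed replicate 1 (3.867). H2-Q1 was 3.127 in fasted replicate 1 (2.487) and 3.72 in fed replicate 1 (2.657). H2-M9 was 3.427 in fed replicate 7 (3.015), H2-M10.2 was 3.065 in fed replicate 6 (2.656), H2-M10.4 was 2.898 in fed replicate 1 (2.422) and H2-M11 was 2.387 in fed replicate 8 (2.128), all dim probe sets. B2m was 12.82 in fed replicate 8 (12.67), and Tapbp was 9.118 in fasted replicate 4 (8.892). Nlrc5 was 3.956 in fasted replicate 2 (4.879). H2-Oa was 3.59 in fasted replicate 2 (3.307) and 3.876 in fed replicate 3 (3.39). Among the listed genes, Tapbpl was 5.755 in fed replicate 2 (6.157), the B cell marker Cd22 was 3.618 in fed replicate 2 (3.184) and the adipocyte gene Plin4 was 11.02 in fasted replicate 1 (11.37). The cilia gene Rsph1 was 5.528 in fasted replicate 7 (3.628) and 5.979 in fed replicate 2 (4.051), and Tekt1 was 4.63 in fasted replicate 7 (3.61). Of the called members, Tapbp and Nlrc5 had such an array, and both stayed called without it.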

How the results depend on the processing

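H2-Q10 stayed called under every alternative except the lowest probe set of a gene, where it was 0.38 (adjusted p = 0.104) and the count of higher genes, over all 40 and among class I heavy chains, was 0. H2-DMa, H2-DMb2 and Nlrc5 stayed called under every alternative at adjusted p under 0.05, and H2-DMb1 under every one that tested it; both filters on dim genes removed it, which left 2 helpers; at adjusted p under 0.01, 2 genes were called lower, and 0 in peptide supply and 5 in the other lists. Subtracting array medians gave 8 lower genes, 2 of them class I heavy chains and 1 a class II chain; 37.7% of calls over all genes were then higher, against 54.7% with medians over the tested genes, which moved the median of all genes to 0.036 and gave 0 lower genes in peptide supply and 5 in the other lists. 1 class I heavy chain was lower under cyclic loess, repeated quantile normalization, the rank sum test and the liver covariate. 1 class II chain, H2-Ab1, was lower under cyclic loess, both filters on dim genes, trend and robust settings and array weights. Peptide supply had 2 lower genes with array weights and 0 with the lowest probe sets. The other lists had 13 lower genes under the filter of a linear value of 20 in 8 arrays. With the replicate block, which the arrays did not call for (3 of 16 correlated best with their own number), 1 class I heavy chain and 0 peptide supply genes were lower. Without fasted replicate 7 and fed replicates 2 and 3, 1 gene was higher and 5 lower, the counts with all arrays.

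Leaving out 1 array at a time gave 1 to 2 higher and 5 to 8 lower genes (2 without fed replicate 6, 8 without fasted replicate 4). By class, 1 to 2 class I heavy chains were higher and 0 to 2 lower, and 1 to 2 peptide supply genes, 0 to 1 class II chains and 3 helpers were lower. The other lists had 4 to 5 higher and 5 to 9 lower (5 without fed replicate 6); within them, 1 to 3 proteasome genes and 1 to 2 folding genes fell (2 without fed replicate 2 or 3), and 1 to 2 class II processing genes rose (2 without fasted replicate 2 or fed replicate 8).

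Genes with differences near 0 changed sign. Without those 3 arrays, H2-M3 was 0.0072 (-0.071 at the lowest with 1 array left out), H2-Q5 0.0060, H2-M10.2 -0.043, H2-M10.4 -0.0079, H2-Oa 0.098 and H2-Pb -0.0021. With medians over the tested genes, H2-M3 was 0.0038, H2-M5 0.019, H2-M1 0.023, B2m 0.016 and H2-Oa 0.031. With array medians, H2-M10.2 was -0.0074 and H2-Pb -0.0088. H2-M5 was 0.0028 under cyclic loess and 0.014 under quantile normalization. With array weights H2-Oa was 0.022, H2-Pb -0.015 and Rsph1 0.035. H2-Q4 was 0.13 with its other probe set. The correlation of H2-Q10 with liver transcripts in fasted arrays was -0.19 as rho and -0.28 without 2 arrays, and 0.24 in fed arrays without 2. With single arrays left out, ranges that crossed 0 were -0.17 to 0.022 for H2-Q5, -0.064 to 0.00028 for H2-M5, -0.025 to 0.16 for H2-T10 (0.20 without those 3 arrays), -0.037 to 0.080 for H2-M10.2, -0.029 to 0.084 for H2-M10.5, -0.0030 to 0.11 for H2-M10.4, -0.050 to 0.023 for H2-M1, -0.046 to 0.0049 for B2m, -0.054 to 0.075 for H2-Oa, -0.060 to 0.074 for H2-Pb and -0.40 to 0.21 for Rsph1. The causes were not tested. Signal over background limits what can be said of the 20 dim genes.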

Other observations

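Beside the class II genes, B2m was set against other class I genes within each group. In fasted arrays its Pearson r was 0.776 with H2-K1, 0.760 with Tap1, 0.654 with Nlrc5 and 0.031 with Psmb8 (adjusted p between 0.134 and 0.983 over 24 correlations by exact permutation, n = 8). Without fasted replicates 1 and 2 these were -0.079, 0.695, -0.475 and 0.679, so those with H2-K1 and Nlrc5 rested on these arrays. In fed arrays r was 0.287 with H2-K1, 0.106 with Tap1, -0.246 with Nlrc5 and 0.029 with Psmb8, and none passed (adjusted p between 0.696 and 0.983 by exact permutation, n = 8).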
